A study of Bombyx mori with 4 samples.

Results

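Runs of closely spaced open chromatin were collected from ATAC-seq of the silkworm Bombyx mori, in which a transposase inserts adapters where DNA is not covered by nucleosomes. Peaks of the 4 deposited lists that overlapped by 1 bp or more were merged into 130309 regions. A region was kept if both brain lists or both fat body lists called it, which left 9003. Kept regions on one sequence were joined when the gap between them was 10000 bp or less, and runs of 3 or more regions were taken as chains. There were 282 chains with 958 member regions, or 10.6% of the kept regions. The members were chosen by the peak calls and by the positions of the peaks, so the number and spacing of chains are descriptions and carry no test.

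The libraries came from wild-type larvae of strain P50, all titled L5D3, with 2 libraries of brain and 2 of fat body. Nothing in the labels tells whether the libraries of a tissue are separate animals, and no gene marker of either tissue could be checked, because a peak list gives no gene names. The peak names of brain 1 carry the code 5L-4D, against 5l3d or L5D3 in the other lists, so its larval day is uncertain. Brain 1 and brain 2 listed 36420 and 11572 peaks, and the fat body lists held 107057 and 14752; the read depth behind them is unknown. Fat body 1 called 103904 of the 130309 merged regions.

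An ATAC-seq peak marks a stretch of DNA where a promoter, an enhancer or another regulatory element is bound or free of nucleosomes. In animal genomes such elements often lie in groups, around genes with several start sites, around genes that need many enhancers, or along arrays of related genes. The insect brain holds neurons and glia, and neurosecretory cells that release hormones. The fat body stores lipid, glycogen and protein and makes most proteins of the haemolymph. Which genes lie in the chains was not analysed here, since the gene table at hand belongs to another assembly, so regions are given by the sequence names and 1-based coordinates of the deposited lists.

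Most chains were short. Of the 282, 207 had exactly 3 regions, 56 had 4, 10 had 5, 5 had 6, 2 had 7, 1 had 8 and 1 had 11. Just outside the limit of 3 regions lay 1091 runs of 2 regions, and 5863 kept regions stood alone. Chains were 2653 to 46557 bp long, with a median of 14775 bp, and open regions covered a median of 17.1% of a chain. Chains thus consisted mostly of the DNA between the regions. The gaps inside chains had a median of 5645 bp, and 397 of 676 were over 5000 bp. Only 26 were 500 bp or less, shorter than the median member, which was 754 bp wide.

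The limit of 10000 bp did not fall at a natural break in the spacing. Neighbouring kept regions lay a median of 30458 bp apart, and 1767 of 8951 gaps were at or under the limit. There were 187 gaps between 9000 and 10000 bp and 155 between 10000 and 11000 bp. The chain count moved with the limit, from 58 chains at 5000 bp to 752 at 20000 bp.

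**Figure D1:**
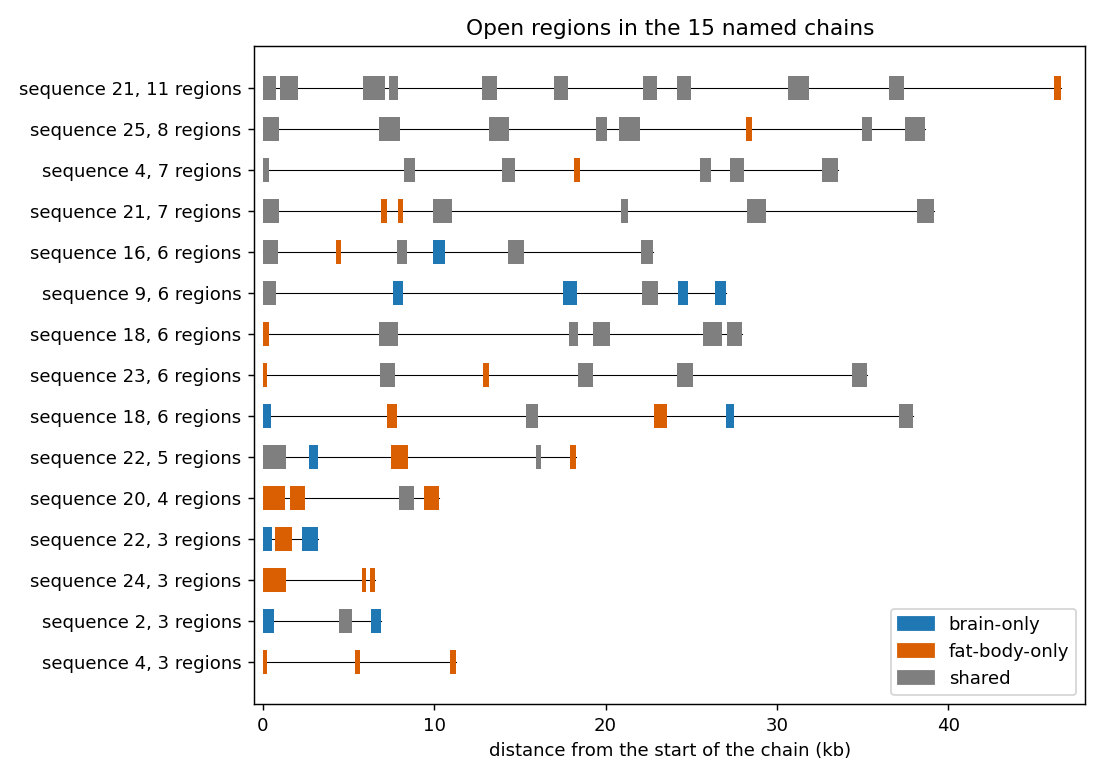
Member regions of the 15 named chains, drawn to scale as boxes from the start of each chain (x axis, kb) and coloured by tissue label; each row is 1 chain. The chain of 11 regions on sequence 21 is the longest, at 46557 bp, and brain-only boxes outnumber the rest in the chain of 6 regions on sequence 9, with 4 of 6.

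Each member was given 1 of 3 labels. Brain-only regions were called in both brain lists and in no fat body list, fat-body-only regions the reverse, and shared regions had a call in at least 1 list of each tissue. Of the 958 members, 71 were brain-only, 213 were fat-body-only and 674 were shared. Among all kept regions the brain-only share was 7.26%, the fat-body-only share 22.4% and the shared 70.4%. The members had nearly the same make-up, with 7.41% brain-only (exact 95% interval 5.83 to 9.26), 22.2% fat-body-only (19.6 to 25.0) and 70.4% shared (67.4 to 73.2). Outside chains the shares were 7.25%, 22.4% and 70.4%, each inside the interval of the members. The label mix of chains and of the other kept regions was thus not distinguishable at these counts.

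Shared members were mostly open in both libraries of one tissue and in 1 library of the other. The commonest set of lists was both brain lists with fat body 1, in 318 members, or 33.2% (30.2 to 36.3), against 28.1% of the kept regions outside chains. Both fat body lists with brain 2 came next among shared members, with 146, or 15.2% (13.0 to 17.7), against 20.1% outside. Regions called in all 4 lists numbered 124, or 12.9% (10.9 to 15.2), against 11.8% outside. Both fat body lists with brain 1 gave 72 members, and both brain lists with fat body 2 gave 14. When the labels were replaced by the tissue whose libraries both called the region, 403 members were reproducible in brain but not in fat body, 431 in fat body but not in brain, and 124 in both. These are 42.1% (38.9 to 45.3), 45.0% (41.8 to 48.2) and 12.9% of the members, beside 38.0%, 50.1% and 11.9% of all kept regions. The brain share in chains thus lay above that of all kept regions and the fat body share below it, both outside the intervals. The intervals cover counting of regions only, and regions are not replicates.

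The brain share was also higher in runs of 2 than alone. Regions reproducible in brain alone were 35.9% (34.7 to 37.2) of those standing alone, 41.6% (39.5 to 43.7) of those in runs of 2 and 42.1% of members, while those of fat body alone went from 52.2% to 46.7% and 45.0%. Within the chains the brain share did not go on rising, at 42.2% in chains of 3, 43.3% in chains of 4 and 38.9% (29.9 to 48.6) in longer ones. Regions reproducible in both tissues made up 10.6%, 15.6% and 20.4% (13.4 to 29.0) of these. The last share was 23 of 113 regions in 19 chains, of which the chains of 11 and 8 regions held 5 and 4. By list, members were called in brain 1 in 62.5% of cases against 57.5% outside chains, and in fat body 2 in 59.4% against 64.6%. The other lists differed less, with 70.3% against 69.4% in brain 2 and 91.1% against 90.7% in fat body 1. The larger differences were thus in 1 library of each tissue, and the part that single libraries play in the change with run size was not tested.

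**Figure D2:**
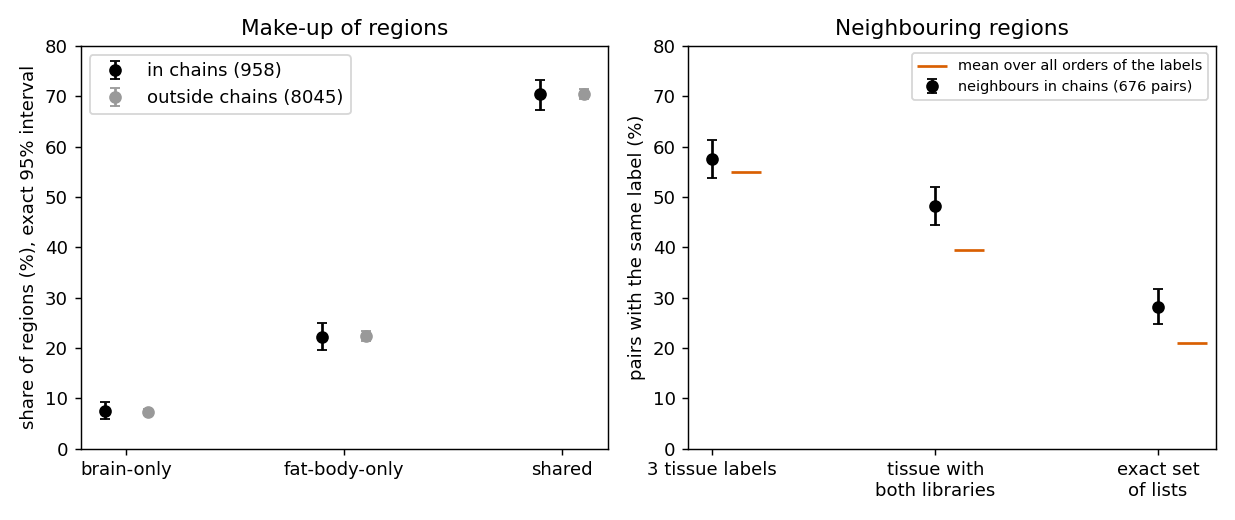
Left, share of regions (%) with each tissue label among the 958 chain members and the 8045 kept regions outside chains; right, share (%) of the 676 neighbouring pairs inside chains with the same label under 3 ways of labelling, with orange bars for the mean over all orders of the labels. Bars are exact 95% intervals; the pairs matched in 57.5%, 48.2% and 28.1% of cases, where the orders gave 54.9%, 39.5% and 21.0%.

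Whether neighbours share a tissue was read against shuffling of the labels, taken as the exact mean over all orders of the labels on the member positions, with no draws and no p. With the 3 tissue labels, 389 of 676 neighbouring pairs matched, or 57.5% (53.7 to 61.3), where all orders give 54.9%, and 55.6% if labels stay on their own sequence. Both means lie inside the interval. Brain-only regions were followed or preceded by a brain-only region in 5 pairs, against a mean of 3.66, and fat-body-only regions by their own kind in 40, against 33.3. A brain-only region stood beside a fat-body-only one in 14 pairs, against 22.3. Under the 3 labels, open regions of one tissue were hardly grouped beyond what label frequencies give.

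Labels by the reproducing tissue gave a wider margin; this way of labelling was added after the data were seen. Then 326 of 676 pairs matched, or 48.2% (44.4 to 52.1), where all orders give 39.5% and orders within a sequence 40.2%. Neighbours both reproducible in brain alone made up 148 pairs, against a mean of 119, and neighbours both reproducible in fat body alone 158, against 137. Mixed neighbours of those kinds were fewer, with 208 against 256. The runs of 2 regions, which are not members, matched in 45.9% (42.9 to 48.9) of 1091 cases, where all orders give 40.5% and orders within a sequence 41.4%. Chains of 3 matched in 50.2% (45.3 to 55.2), where orders within a sequence give 40.9%. In chains of 4 the share was 47.0% (39.3 to 54.9) against 41.8%, and in longer ones 41.5% (31.4 to 52.1) against 39.1%. So a region reproducible in one tissue tended to have a neighbour reproducible in the same tissue, in runs of 2 and in chains of 3. In chains of 4 or more the means within a sequence lie inside the intervals. The mean over all orders was 37.8% for chains of 4, below their interval, and 35.3% for longer ones, inside it. Orders within a sequence used only members of chains of the same size class. Most sequences with a chain of 5 or more held a single such chain, so labels were reordered inside it. Those means thus cannot tell whether the grouping ends at chains of 3. Under the 3 labels, 318 of the 403 members reproducible in brain alone counted as shared because fat body 1, the longest list, also called them. By list, neighbours were alike (both called or both not) in 62.0% of pairs for brain 1 (mean over orders 53.1%) and 62.3% for brain 2 (58.2%). For fat body 1 the value was 84.9% (83.8%), and for fat body 2 it was 59.0% (51.7%). The lists are not independent here, since keeping a region requires 2 of them.

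The match between neighbours showed no steady change with spacing within chains. With labels by the reproducing tissue, neighbours up to 1000 bp apart matched in 28 of 62 pairs, or 45.2% (32.5 to 58.3), and those 7500 to 10000 bp apart in 80 of 179, or 44.7% (37.3 to 52.3). The highest share, 51.8% (45.0 to 58.6) of 218 pairs, belonged to gaps of 5000 to 7500 bp. All intervals overlapped.

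A single label ran through 100 of the 282 chains, against a mean of 90.7 over all orders, but few of them were of 1 tissue. All members were shared in 95 chains, against a mean of 88.2, and all were fat-body-only in 5, against 2.39. No chain was wholly brain-only, where the mean is 0.0826. Of the 75 chains of 4 or more regions, 17 carried a single label, against a mean of 17.1. A shared region was present in 274 chains, and 120 chains combined fat-body-only with shared regions, 34 brain-only with shared, 25 all 3 labels and 3 brain-only with fat-body-only regions. By the reproducing tissue, 30 chains were wholly brain and 40 wholly fat body, against means of 17.2 and 21.3, while 166 chains held regions reproducible in brain alone beside others reproducible in fat body alone. Most chains thus mixed regions of both tissues.

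The label mix changed when every list was held to the same number of best peaks, a step that alters list length and peak strength together. The number, 11572, is the whole length of the brain 2 list, so that list was not cut. Brain 1 was cut from 36420 peaks, fat body 1 from 107057 and fat body 2 from 14752. With the 11572 best peaks of each list, there were 102 chains with 356 members, and 96 of these members, or 27.0% (22.4 to 31.9), were brain-only, against 34.6% of kept regions outside chains. Fat-body-only members were 20.5% (16.4 to 25.1) against 14.7% outside. Neighbours then matched in 50% of 254 pairs with the 3 labels, where all orders give 38.9%, with 27 brain-only pairs (mean 18.3) and 20 fat-body-only pairs (mean 10.6). With lists of one length the 3 labels also matched between neighbours more often than their frequencies give. With gaps of at most 5000 bp, 25 of 187 members were brain-only, or 13.4% (8.84 to 19.1), against 7.13% outside chains.

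The chain with the most members lay on BHWX01000021.1 from 11072824 to 11119380 and held 11 regions in 46557 bp. Fat body 1 called all 11, brain 1 called 10, fat body 2 called 9 and brain 2 called 7, and 5 regions were in all 4 lists. Its last region, from 11118962 to 11119380, was fat-body-only, and the other 10 were shared. The fold enrichment at the summit is the authors' value, set by the peak caller against local background within 1 library. Over the chain it ran from 6.44 to 19.6 for fat body 1 and from 3.22 to 12.6 for fat body 2, and from 4.90 to 14.2 for brain 1 and from 4.15 to 7.53 for brain 2. Where the lists of a tissue are named together, library 1 is given first. Folds of different lists are not compared in size, since depth and background differ. Within the lists, the order of regions along the chain was not alike. The highest fold of both brain lists fell on the region from 11109339 to 11110233, at 14.2 and 7.53, whereas both fat body lists peaked on the region from 11080201 to 11080729, at 19.6 and 12.6. That second region had 5.62-fold enrichment in brain 1 and no call in brain 2. Ranked by −log10 q within each list, the member that stood highest, with a mean percentile of 95.9, ran from 11089790 to 11090610 and had 14.8-fold and 12.2-fold enrichment in the fat body lists, 8.31-fold in brain 1 and no call in brain 2.

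**Figure D3:**
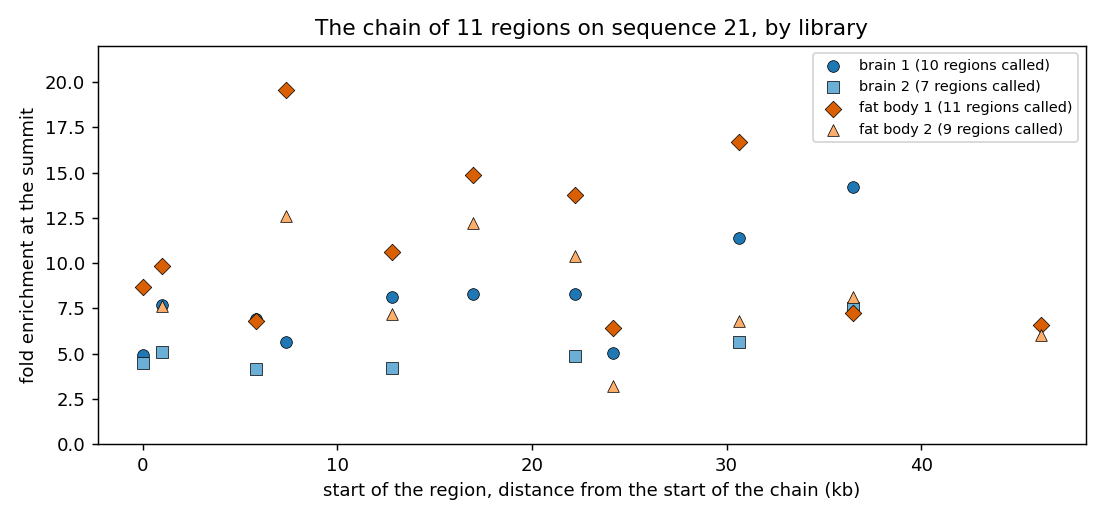
Fold enrichment at the summit (y axis) of the 11 regions of the largest chain by distance of their start from the start of the chain (x axis, kb), 1 symbol per library; a missing symbol means no peak was called. Both brain libraries have their highest fold near the far end, at 14.2 and 7.53, and both fat body libraries theirs near the start, at 19.6 and 12.6.

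The second chain, on BHWX01000025.1 from 6851160 to 6889788, had 8 regions, of which 3 were reproducible in brain alone, 1 was fat-body-only and 4 were open in all lists. Its first 3 regions lacked a fat body 2 call, and 4 of the last 5 had calls in every list. The strongest by percentile ran from 6888617 to 6889788, with 9.12-fold and 4.79-fold enrichment in the brain lists and 16.4-fold and 12.3-fold in the fat body lists. The weakest, from 6857948 to 6859191, was enriched 3.73-fold and 3.09-fold by the brain lists, 2.61-fold in fat body 1 and no call in fat body 2.

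There were 2 chains of 7 regions. One, on BHWX01000004.1 from 2063098 to 2096655, began with a region of 371 bp that had 30.4-fold and 13.4-fold enrichment in the fat body lists, 15.3-fold in brain 1 and no call in brain 2. The other, on BHWX01000021.1 from 9461726 to 9500901, had 3 regions in all 4 lists. Its best member by percentile, from 9471645 to 9472757, was enriched 9.33-fold and 8.47-fold in the brain lists and 9.19-fold and 7.07-fold in the fat body lists. Next to it lay a close pair of fat-body-only regions, from 9468636 to 9468970 and from 9469634 to 9469897, the first enriched 10.4-fold and 6.94-fold in the fat body lists and the second 10.1-fold and 6.30-fold. Calls in every list and calls of the fat body alone thus stood within a few kilobases of each other.

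Of the 5 chains of 6 regions, the one on BHWX01000009.1 from 11963792 to 11990833 had the most brain-only regions of any chain, 4. These had folds of 3.61 to 5.42 by the brain 1 list and of 3.13 to 3.56 by the brain 2 list, below the medians of brain-only members, 8.04 and 4.01. Between them, from 11985937 to 11986832, lay a region called in all lists with 4.72-fold and 3.22-fold enrichment in the brain lists and 15.3-fold and 9.84-fold in the fat body lists. Its 4 brain-only calls thus had low folds, although by −log10 q they stood at percentiles 79.6 to 86.4 of the brain 1 list and 11.1 to 48.4 of the brain 2 list. On BHWX01000018.1 from 13933553 to 13971482, 2 brain-only, 2 fat-body-only and 2 shared regions were interspersed. Its first region, brain-only from 13933553 to 13934009, was enriched 14.9-fold and 7.08-fold by the brain lists. A second chain on that sequence ran from 10092389 to 10120370 and had no region in all lists; its fat-body-only start region had 18.1-fold and 11.5-fold enrichment in the fat body lists. The chain on BHWX01000016.1 from 4007394 to 4030153 packed 6 regions into 22760 bp. It opened with a region of 15.6-fold and 10.8-fold enrichment in the brain lists and 3.45-fold in fat body 1, followed by a fat-body-only region with 13.3-fold and 9.21-fold enrichment in the fat body lists. The chain on BHWX01000023.1 from 8924328 to 8959580 ended with a region of 31.4-fold and 18.9-fold enrichment in the fat body lists that brain 1 also called. The tenth chain, on BHWX01000022.1 from 16348305 to 16366554, had 5 regions with all 3 labels.

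No chain had more than 3 fat-body-only regions. There were 8 chains with that number, of which the 3 shortest are described. On BHWX01000020.1 from 3315454 to 3325740, the fat-body-only regions had folds of 9.02, 9.84 and 10.4 by the fat body 1 list and of 5.67, 5.32 and 5.49 by the fat body 2 list. The remaining region was also called in both fat body lists, at 7.32-fold and 3.60-fold. In brain 1 it had 4.47-fold enrichment, at percentile 9.38 by −log10 q, and in brain 2 no call. On BHWX01000004.1 from 1251018 to 1262268, regions of 252, 310 and 316 bp, 5126 and 5247 bp apart, had folds of 10.1, 13.5 and 12.7 by the first list and of 8.30, 10.8 and 7.39 by the second. On BHWX01000024.1 from 3556822 to 3563380 the folds were lower, 2.80 to 3.76 by the first list and 4.69 to 5.28 by the second.

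After the chain on sequence 9, with 4 brain-only regions, 6 chains had 2; the 2 shortest of them are described here. On BHWX01000022.1 from 14954135 to 14957333, brain-only regions with 6.17-fold and 7.83-fold enrichment in brain 1 and 3.04-fold and 4.45-fold in brain 2 flanked a fat-body-only region with folds of 3.62 and 10.4. The gaps were 174 and 554 bp, so open regions covered 77.2% of this chain. The chain on BHWX01000002.1 from 7912830 to 7919743 had the same outline, with brain-only regions of 12.4-fold and 13.4-fold enrichment in brain 1 and 3.82-fold and 6.31-fold in brain 2 on either side of a region called in brain 2 and both fat body lists.

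Members were somewhat narrower at the median than kept regions standing alone, and about as wide as those in runs of 2. The median width was 754 bp in chains and 778 bp outside, with 757 bp in runs of 2 and 787 bp alone. Brain-only members had a median of 607 bp against 692 bp outside, and fat-body-only members 749 against 802 bp. Narrow regions were commoner among fat-body-only calls in general: 68 of 213 such members, or 31.9% (25.7 to 38.6), were under 400 bp, and so were 26.4% of the fat-body-only regions outside chains, a value inside the interval. Only 3 of 71 brain-only and 32 of 674 shared members were that narrow. The narrow fat-body-only members had a median fold of 12.4 in fat body 1, against 4.20 for the wider ones, and of 7.81 against 7.08 in fat body 2. The bound of 400 bp was chosen after these widths were seen.

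Median fold enrichment was lower in chains than outside in 3 lists and higher in fat body 1. Brain 1 had a median of 9.33 in chains against 10.7 outside, brain 2 had 4.76 against 5.24, fat body 2 had 8.41 against 9.26, and fat body 1 had 6.51 against 5.54. Quartiles overlapped widely, as in brain 1, where they were 6.93 and 12.3 in chains. By percentile of −log10 q within each list the medians were close in brain 1 (89.4 in both), brain 2 (49.4 and 51.7) and fat body 2 (57.1 and 56.7). In fat body 1 the median percentile was 87.3 for members and 79.1 for the others. That difference held within labels, at 71.9 against 57.5 for fat-body-only and 89.7 against 84.7 for shared regions. Among chains only, the median percentile rose with chain size in every list. In chains of 3, of 4 and longer it was 83.6, 91.9 and 95.2 in fat body 1. The values were 53.4, 62.7 and 66.9 in fat body 2, 89.0, 90.9 and 92.2 in brain 1, and 46.8, 49.9 and 60.8 in brain 2. For regions alone and in runs of 2, the medians were 77.4 and 82.9 in fat body 1 and 56.8 and 56.4 in fat body 2. They were 89.2 and 90.0 in brain 1 and 51.9 and 50.7 in brain 2. Chains of 3 thus lay below both in every list but fat body 1. The longest class held 113 regions in 19 chains.

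**Figure D4:**
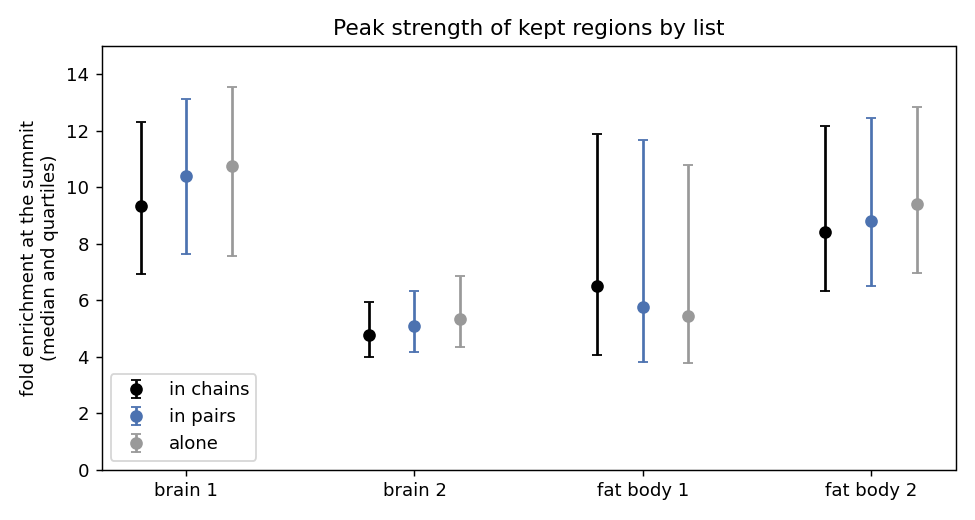
Fold enrichment at the summit (y axis, median with quartiles) of kept regions in chains of 3 or more, in runs of 2 and alone, for each of the 4 lists. From alone to chains the median goes from 10.8 to 9.33 in brain 1 and from 5.44 to 6.51 in fat body 1; folds are comparable within a list only.

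Summits of the libraries of a tissue lay close together in members. They were within 100 bp in 64.3% (60.1 to 68.4) of the 527 members called in both brain lists, against 61.1% outside chains, and in 61.3% (57.1 to 65.3) of the 555 called in both fat body lists, against 55.8%. The fat body share outside chains fell below the interval of the members, and the brain share fell inside it. The medians of this distance were 71 bp for brain and 64 bp for fat body.

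The DNA between members held no surplus of other peaks. Regions that were not kept numbered 1.94 per 10 kb of gap inside chains, 1.93 inside runs of 2, 2.58 in gaps of 10 to 20 kb and 2.79 in longer gaps. By list, brain 1 had 0.510 inside chains against 0.715 in gaps over 20 kb, and brain 2 had 0.0685 against 0.119. The fat body 1 list had 1.51 against 2.21, and the fat body 2 list had 0.140 against 0.203. By construction, a peak that touched a kept region was merged into it, which leaves less room in short gaps.

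**Figure D5:**
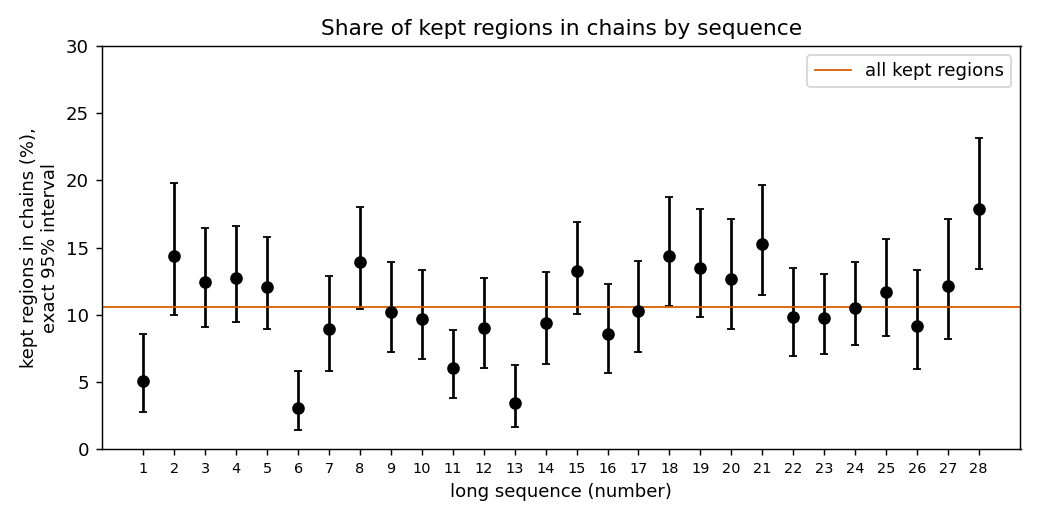
Share of kept regions that were members of chains (y axis, %, with exact 95% intervals) on each of the 28 long sequences (x axis); the line is the share over all kept regions, 10.6%. Sequences 1, 6, 11 and 13 lie below the line with their whole interval, and sequences 18, 21 and 28 above it.

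All members lay on the 28 long sequences, whose last peaks ended between 8.36 and 21.5 Mb; the 40 kept regions on shorter, unplaced sequences formed no chain of 3. Chains covered 4.41 Mb, or 0.992% of the long sequences up to their last peak. Every long sequence had at least 3 chains, and their density had a median of 0.685 per Mb. The share of kept regions in chains was highest on sequence 28, with 46 of 257, or 17.9% (13.4 to 23.1), and lowest on sequence 6, with 9 of 290, or 3.10% (1.43 to 5.81). Sequences 13, 1 and 11 were also low, at 3.45%, 5.12% and 6.02%. Sequence 28 carried 24.3 kept regions per Mb and sequence 1 carried 12.3. Sequence 6 carried 17.4 per Mb and sequence 12, with 28 of 311 kept regions in chains, 17.7. The label mix of members stood apart on some sequences, of which the following were picked from the 28 after their values were seen. On sequence 15, 23 of 54 members, or 42.6% (29.2 to 56.8), were fat-body-only, against 22.3% of its kept regions outside chains. On sequence 24, 39 of 43 members, or 90.7% (77.9 to 97.4), were shared, against 71.8% outside. Chains themselves were scattered: the median distance from one chain to the next was 816 kb, and 23 of 254 such distances were 100 kb or less.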

How the data were processed

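Each library had 1 deposited narrowPeak list. MACS2 2.1.0 is the peak caller that the submitters' processing notes name, beside Bowtie2, Trim Galore, Picard and deepTools 3.3.0. The sequence names begin with BHWX01, and the peak names of fat body 2 carry a mapping quality of 20, and all peak names a significance cut-off. Other settings, a build name and read counts stand in no source used here. For every peak the deposited lists hold the fold enrichment at the summit (a ratio to local background), the −log10 of p and of q, and a whole-number score. The score deposited by the authors follows −log10 q for fat body 2 and −log10 p for the rest. The lowest −log10 p deposited was 6.69 for fat body 2 and between 5.01 and 5.03 for the other lists, so the lists were cut differently. Peaks were called per library.

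Regions were merged, labelled and chained with Python 3.11.15, pandas 2.3.3 and SciPy 1.17.1, and the steps were checked on simulated lists. Intervals are exact binomial (Clopper-Pearson, 95%) and cover counting only. With 2 libraries per tissue the smallest two-sided p over libraries is 0.333, so no test is given. Named chains are the 10 with the most members and, per label, the 3 with the most members of that label (ties: shorter first). Where a region has several peaks of a list, the one with the highest −log10 q gives its fold. The mean over all orders of the labels was computed in closed form. The members and lists were chosen with earlier results of these data known.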

Additional observations from a re-analysis of the deposited data

How the results depend on the processing

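Of the alternatives that left out no library, a −log10 q of at least 5, an overlap of at least 50% and the run without sequence 1 kept all 6 results (chains, members, brain-only and fat-body-only share, matching neighbours, chains of 1 label) within 1.5 times for counts or within the interval for shares. Against 282, 958, 7.41%, 22.2%, 57.5% and 100, the same number of best peaks gave 102 chains, 356 members, 27.0% brain-only, 50% matching and 25 chains of 1 label. Summit windows gave 633 members, 11.2% brain-only, 26.2% fat-body-only, 49.0% matching (mean over orders 47.2%) and 48 chains of 1 label. A gap of 5000 bp gave 58, 187, 13.4% brain-only, 48.8% matching (47.3%) and 16, and a gap of 20000 bp gave 752, 2767 and 233 chains of 1 label. Chains of 4 or more gave 75, 337 and 17. Counting as shared only regions in all 4 lists gave 43.3% matching (40.1%) and 58 chains of 1 label; labels by the reproducing tissue, added after the data were seen, gave 48.2% matching. By construction, a shorter gap limit or a higher minimum of regions cannot add members, and splitting the shared label cannot add matches. Causes of the other changes were not tested. Leaving out 1 library, its tissue being called from 1 list, gave 808 chains (without brain 1) to 5661 (without brain 2), 2832 members (without brain 1) to 103376 (without fat body 2), 0.780% brain-only (without fat body 2) to 41.6% (without brain 2), 9.48% fat-body-only (without brain 2) to 79.2% (without fat body 2), 38.9% matching (without fat body 1) to 67.2% (without fat body 2) and 146 (without fat body 1) to 922 (without fat body 2) chains of 1 label. For chains of 1 label, the means over orders were 14.1 for the best peaks, 44.8 for summit windows, 14.6 at 5000 bp and 221 at 20000 bp. They were 17.1 for chains of 4 or more and 48.9 with shared regions in all 4 lists. Only the counts for chains of 4 or more and without fat body 1 (146 against 150) lay below their means. No paired analysis was possible because no result comes from a test over libraries. Absence from a list may be lack of depth, which the lists do not give.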
